A study of Homo sapiens with 18 samples.

Results

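DKK1, a secreted inhibitor of Wnt signalling, and 9 further genes of the Wnt pathway were followed in IMR90 cells, primary human lung fibroblasts. The 10 genes were taken by their symbols from a table of 56269 genes, and they are the secreted inhibitors DKK1, DKK3 and SFRP1, the ligands WNT5A and WNT5B, the receptors FZD7, LRP5 and LRP6, the signal carrier CTNNB1 and the feedback gene AXIN2. The list was drawn up when results of the same libraries were already known, so how these genes differed after the oxidant is given as a description, without a test. Polyadenylated RNA was sequenced from 6 groups of 3 replicates each, 18 libraries in all. Cells were kept for 6 h with PBS, with 20 μg/ml cNSF-HA or with 20 μg/ml fNSF-HA. NSF-HA is the very long hyaluronan that skin fibroblasts of the naked mole-rat release. fNSF-HA had been partly cut with hyaluronidase, whereas cNSF-HA, its control, had been heated with inactivated enzyme. In 9 libraries the cells were collected at that point. In the other 9 the medium was removed and 200 μM tBHP (tert-butyl hydroperoxide), an oxidant, was given for 1 h, with collection a further 5 h later. No unexposed cells of that later time were among the libraries, so the oxidant cannot be told apart from the added hours and the change of medium. All cells came from a single line. The study's methods call its replicates biological, and the labels do not name the cultures, so p-values measure the spread between these libraries.

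In the canonical Wnt pathway, a Wnt ligand joins a Frizzled receptor to the co-receptor LRP5 or LRP6 at the cell surface. This stops a complex that contains APC, AXIN1 and casein kinase from marking β-catenin (CTNNB1) for destruction, and β-catenin then works with TCF and LEF factors in the nucleus. DKK1 binds LRP5 and LRP6 and keeps them from the ligand, while SFRP1 binds the ligands themselves. WNT5A is known mainly for signalling that does not use β-catenin, and AXIN2 is a widely used readout of the β-catenin branch. Fibroblasts are a known source of both DKK1 and WNT5A.

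The 250 bases before the start of transcription are shown for DKK1, whose values carry most of what follows, and for LRP5, because each was the only member promoter with a match to a motif searched. Promoter sequences of 5 of the 10 genes were in the RefSeq table (GRCh38.p14). CTTTGAT and CTTTGAA, 2 forms of the core that TCF and LEF factors recognise, and CCTGCG, a motif that the study links to the intracellular part of the hyaluronan receptor CD44, were searched on both strands. CTTTGAA was found in the promoter of DKK1 (chr10:52314031-52314280, plus strand), where the match starts 95 bases before the start of transcription. CCTGCG was found in that of LRP5 (chr11:68312341-68312590, plus strand), starting 148 bases before it. The capitals mark the match, and both sequences run 5′ to 3′.
DKK1: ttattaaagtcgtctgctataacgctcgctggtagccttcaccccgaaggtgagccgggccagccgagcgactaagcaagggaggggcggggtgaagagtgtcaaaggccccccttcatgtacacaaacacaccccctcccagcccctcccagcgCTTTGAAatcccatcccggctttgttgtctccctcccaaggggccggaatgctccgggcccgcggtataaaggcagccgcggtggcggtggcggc
LRP5: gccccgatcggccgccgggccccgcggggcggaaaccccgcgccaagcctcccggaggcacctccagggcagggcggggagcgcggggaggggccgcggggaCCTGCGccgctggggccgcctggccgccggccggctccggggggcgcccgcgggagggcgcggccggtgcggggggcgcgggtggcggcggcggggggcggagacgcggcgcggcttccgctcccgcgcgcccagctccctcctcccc
Of the 35116 promoter windows of the same length in the table, 3.80% held CTTTGAA, 2.26% held CTTTGAT and 20.2% held CCTGCG. The GC content of the windows was 62.8% for DKK1 and 87.2% for LRP5. A match is only a description of the letters in the window.

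Between 20261103 and 26287660 reads were counted on genes in each library (median 22526500). The values below are normalized read counts, that is, reads divided by the DESeq2 size factor of the library. The label check went the way of the labels: HMOX1, which oxidants are known to induce, had a mean of 5892 ± 227 (SD, n = 3) in PBS cells and 45959 ± 3885 (SD, n = 3) after tBHP. Its means were 6210 ± 326 and 46618 ± 3978 (SD, n = 3) with cNSF-HA, and 6203 ± 148 and 43178 ± 7593 (SD, n = 3) with fNSF-HA. SRXN1, another such gene, stood at 8.78 ± 2.90 and 47.6 ± 5.38 (SD, n = 3) with PBS. The step of SRXN1 was smaller with cNSF-HA, from 16.4 ± 3.51 to 26.3 ± 3.78, and with fNSF-HA, from 9.35 ± 2.11 to 18.03 ± 5.45 (SD, n = 3), although the groups did not overlap. Of the fibroblast markers, 8 of 8 were present in every library, and their summed count was 588985 to 610836 without tBHP and 452013 to 717947 with it. The summed counts of 4 epithelial, 4 endothelial and 4 leukocyte markers were at most 9.85, 25.1 and 13.7, with KRT5, SFTPC and CDH5 at 0 in all 18 libraries. Replicates lay further apart after tBHP, where the median SD within a group over the 13686 genes tested was 0.21 on the log2 scale, against 0.076 without it. Part of this spread ran with the GC content of the transcripts, and for the genes named below, values with that trend and the trend with transcript length removed are given where they turned a change with tBHP or moved it by over 1.5 times. In such bulk RNA, fewer cells that express a gene and less RNA per cell cannot be told apart.

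All 10 genes were detected, and all 10 passed the filter of a mean count of at least 10, AXIN2 only barely (mean 11.2). Divided by the joined length of all exons of the gene, the mean level over the 18 libraries was highest for DKK1 (3066 normalized counts per kb). DKK3 (1435), SFRP1 (1175), CTNNB1 (718), FZD7 (682) and WNT5B (603) came next, followed by WNT5A (290) and LRP5 (142). LRP6 (32.7) and AXIN2 (2.14) were the lowest. The order from WNT5A downwards held in the group means of all 6 groups. Higher up it moved with tBHP: FZD7 had more counts per kb than CTNNB1 in PBS cells (846 and 709) and fewer after tBHP (540 and 709). CTNNB1 and WNT5B (709 and 690 per kb in unexposed PBS cells) overlapped between libraries, as did FZD7 and WNT5B in PBS cells after tBHP (540 and 491). The places of CTNNB1, FZD7 and WNT5B depend on the length used. The joined exons of CTNNB1 and WNT5B have 11927 and 4305 bases, and their longest transcripts 4888 and 2303. For FZD7 both lengths are 3859. Per kb, DKK1 and DKK3 were the most abundant of the 10, whereas of their relatives DKK2 had at most 3 reads in a library and DKK4 had none.

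**Figure D1:**
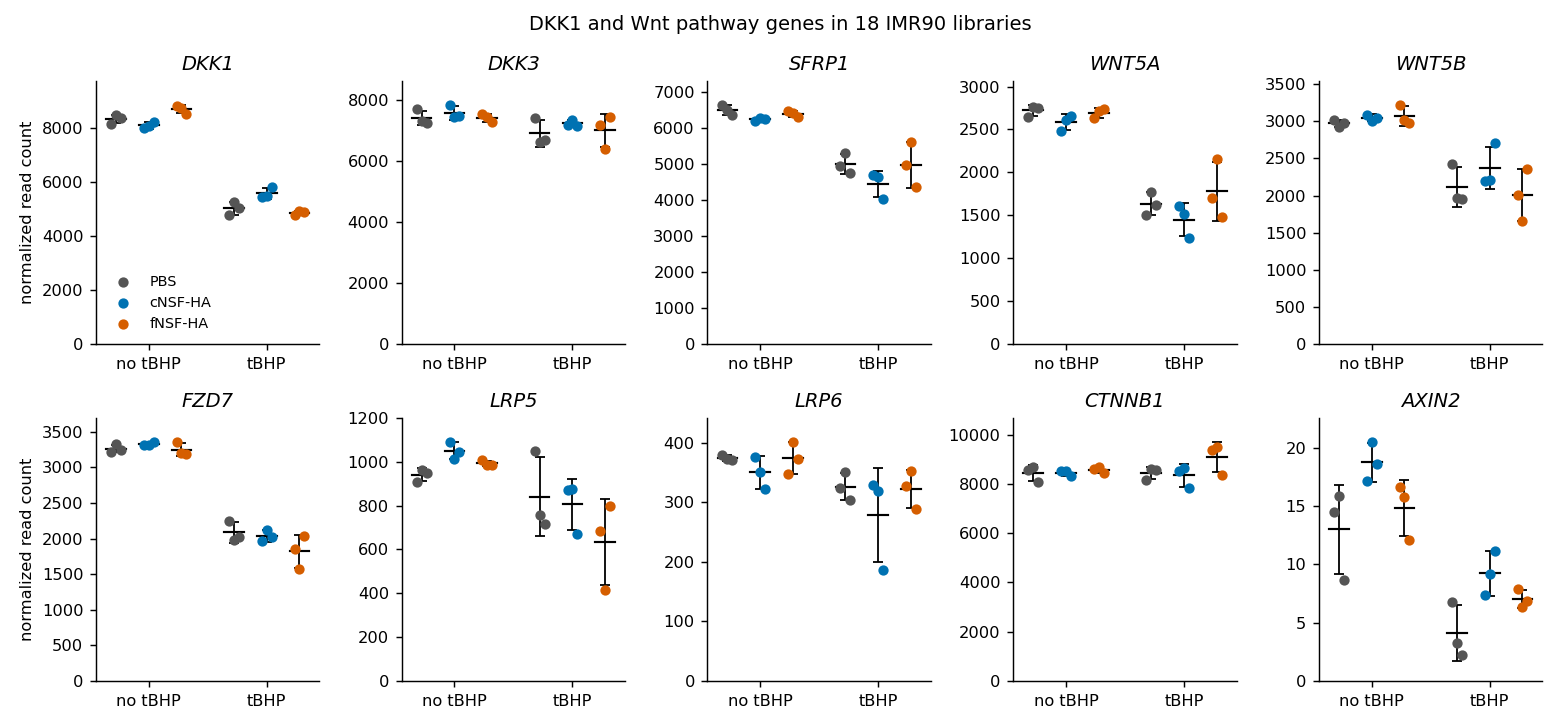
Normalized read counts (vertical axes, starting at 0) of the 10 genes in PBS, cNSF-HA and fNSF-HA cells without and with tBHP. Points are libraries, horizontal lines are group means and bars are SD (n = 3). For DKK1 the 9 libraries with tBHP lie between 4769 and 5819, all under the 9 without it (7976 to 8810).

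DKK1 was lower in every library collected after tBHP than in every library collected before it. In PBS cells its normalized read counts were 8146, 8473 and 8359, and after tBHP they were 4769, 5260 and 5048. In cNSF-HA cells they were 7976, 8072 and 8217 before and 5442, 5481 and 5819 after. In fNSF-HA cells they were 8810, 8746 and 8519 before and 4778, 4928 and 4884 after. The groups did not overlap in any of the 3 pre-incubations. The log2 change, on the scale of log2(count + 1), was -0.73 (95% interval -0.84 to -0.62) with PBS, -0.54 (-0.65 to -0.42) with cNSF-HA and -0.84 (-0.95 to -0.73) with fNSF-HA. As a ratio of means, 60.4%, 69.0% and 56.0% of the level before tBHP were left. DKK1 lies at chr10:52314296-52318042 on the plus strand (GENCODE release 29, GRCh38) and is overlapped on the other strand by PRKG1-AS1. The library kit does not keep the strand, so reads of such a pair cannot be told apart, but PRKG1-AS1 had a mean count of only 12.6.

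Of the other secreted inhibitors, SFRP1 was also lower after tBHP, and DKK3 differed less. SFRP1 counts were 6635, 6487 and 6348 in PBS cells and 4954, 5306 and 4750 after tBHP. They were 6195, 6272 and 6258 in cNSF-HA cells and 4689, 4637 and 4038 after tBHP. In fNSF-HA cells they were 6474, 6398 and 6312 before and 4963, 5614 and 4350 after. Again no library with tBHP reached the lowest without it, and the log2 change was -0.38 (SE 0.079), -0.49 and -0.37 in PBS, cNSF-HA and fNSF-HA cells. DKK3, a dickkopf relative that is not known to act on LRP5 and LRP6 as DKK1 does, had means of 7413 ± 241, 7581 ± 222 and 7418 ± 130 (SD, n = 3) in the unexposed PBS, cNSF-HA and fNSF-HA cells. Its means after tBHP were 6910 ± 447, 7229 ± 105 and 7008 ± 547 (SD, n = 3). Its log2 changes were -0.10, -0.068 and -0.085, and its groups overlapped in PBS and fNSF-HA cells. With the trend with GC content and length removed, the values for DKK3 were -0.27, -0.25 and -0.19.

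Both Wnt ligands were lower after tBHP. WNT5A counts were 2651, 2764 and 2753 in PBS cells and 1509, 1774 and 1623 after tBHP. In cNSF-HA cells they were 2487, 2616 and 2662 before and 1603, 1513 and 1236 after, and in fNSF-HA cells 2630, 2719 and 2734 before and 1699, 2158 and 1483 after. The groups were apart in all 3 pre-incubations, and the spread was wider after tBHP, with the highest exposed library in fNSF-HA replicate 2. The log2 change was -0.74 (SE 0.11), -0.84 and -0.62. WNT5B, a close relative of WNT5A, stood at 3012, 2924 and 2976 in PBS cells and at 2419, 1967 and 1953 after tBHP. It was at 3092, 2998 and 3051 in cNSF-HA cells before and 2200, 2210 and 2703 after, and at 3220, 3017 and 2980 in fNSF-HA cells before and 2012, 1655 and 2354 after. The log2 change was -0.50 (SE 0.11), -0.37 and -0.63, again without overlap. The ligands diverged in the same library: in fNSF-HA replicate 2 after tBHP, WNT5A was at its highest and WNT5B at its lowest of the 9 exposed libraries. The GC content of the longest transcript is 42.3% for WNT5A and 58.6% for WNT5B (median of the genes tested 47.9%). With the trend with GC content and length removed, the log2 changes were -0.51, -0.56 and -0.47 for WNT5A and -0.77, -0.69 and -0.72 for WNT5B, so that WNT5B had the larger of the 2. FBXL14 overlaps WNT5B on the other strand (mean count 127), as does WNT5A-AS1 for WNT5A (0.72).

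Among the receptors, FZD7, a Frizzled receptor, showed the clearest difference. Its counts were 3221, 3324 and 3246 in PBS cells and 2250, 1983 and 2024 after tBHP. They were 3312, 3314 and 3360 in cNSF-HA cells before and 1960, 2123 and 2027 after, and 3362, 3202 and 3188 in fNSF-HA cells before and 1849, 1576 and 2036 after. The groups did not overlap, and the log2 change was -0.65 (SE 0.078), -0.71 and -0.84 in PBS, cNSF-HA and fNSF-HA cells. The co-receptors were less uniform. LRP5 counts were 909, 964 and 949 in PBS cells and 1049, 759 and 716 after tBHP, so replicate 1 lay above all unexposed PBS libraries and the groups overlapped. In cNSF-HA cells LRP5 was at 1092, 1013 and 1046 before and 871, 877 and 672 after, and in fNSF-HA cells at 1006, 985 and 985 before and 684, 416 and 797 after. The log2 change of LRP5 was -0.18 (95% interval -0.56 to 0.19), -0.39 (-0.76 to -0.017) and -0.70 (-1.07 to -0.33). With a library left out these ran from -0.35 to -0.076, from -0.46 to -0.26 and from -0.89 to -0.43. LRP5 has the most GC-rich transcript of the 10 (62.8%), and its lowest library was fNSF-HA replicate 2 with tBHP. With the GC and length trend removed the values for LRP5 were -0.51, -0.67 and -0.70. LRP6 had means of 375 ± 4.40, 350 ± 27.2 and 375 ± 26.9 (SD, n = 3) before tBHP in PBS, cNSF-HA and fNSF-HA cells. After it the means were 326 ± 23.3, 279 ± 79.7 and 323 ± 32.3 (SD, n = 3). Its log2 change was -0.20 (95% interval -0.53 to 0.13), -0.37 (-0.70 to -0.043) and -0.22 (-0.55 to 0.11). The exposed cNSF-HA counts were 330, 320 and 187, and with a library left out the change there ran from -0.51 to -0.11. LRP6 has the lowest GC content of the 10 (40.2%). Its direction turned to 0.15, 0.083 and 0.027 with the GC and length trend removed.

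The counts of CTNNB1, the β-catenin gene, lay close together before and after tBHP. They ranged from 8101 to 8681 in PBS cells without tBHP (median 8575) and from 8184 to 8601 with it. In cNSF-HA cells they ran from 8315 to 8538 without tBHP and from 7831 to 8672 with it, and in fNSF-HA cells from 8460 to 8695 and from 8385 to 9515. The groups overlapped in all 3 pre-incubations. The log2 changes were 0.00046 (95% interval -0.13 to 0.13), -0.021 (-0.15 to 0.11) and 0.082 (-0.045 to 0.21). They were 0.16, 0.18 and 0.17 with the GC and length trend removed, and the transcript is 43.5% GC. With that trend removed the exposed libraries lay above the unexposed ones without overlap in all 3 pre-incubations. ULK4 overlaps CTNNB1 on the other strand, with a mean count of 78.6.

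AXIN2, the readout of the β-catenin branch, was at the limit of detection. From 2 to 21 reads were counted per library. In PBS cells its normalized counts were 14.5, 15.9 and 8.65, and after tBHP 6.81, 3.27 and 2.19, which came from 6, 3 and 2 reads. In cNSF-HA cells they were 17.2, 20.5 and 18.6 before and 7.38, 9.13 and 11.2 after, and in fNSF-HA cells 16.7, 15.8 and 12.1 before and 7.89, 6.38 and 6.83 after. No exposed library reached the lowest unexposed library of its own pre-incubation, although the cNSF-HA library with 11 reads lay above the unexposed PBS library with 10. The log2 changes were -1.52 (95% interval -2.24 to -0.81), -0.96 (-1.68 to -0.25) and -0.97 (-1.69 to -0.26). AXIN2 passed the filter only through its unexposed groups, with means of 13.0, 18.8 and 14.9 against 4.09, 9.23 and 7.04 after tBHP. A lower level after tBHP was thus favoured by the filter and is a description only. At such counts the pseudocount matters, and with a pseudocount of 5 the change in PBS cells was -0.99.

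**Figure D2:**
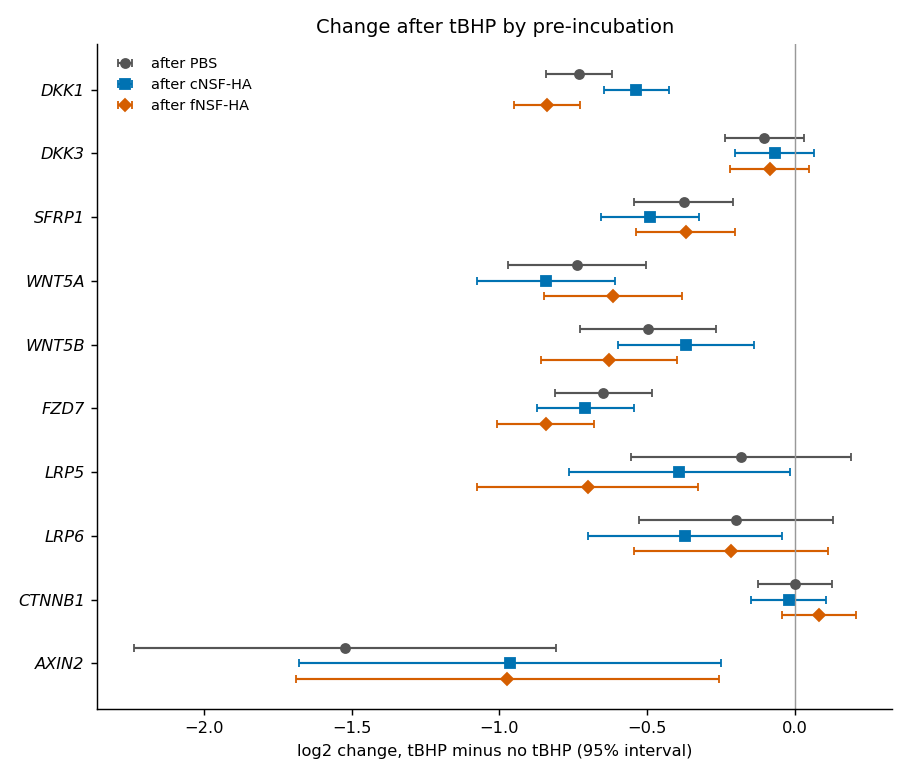
Log2 change from no tBHP to tBHP (horizontal axis, log2 of normalized read count + 1) of the 10 genes after PBS, cNSF-HA and fNSF-HA pre-incubation. Points are estimates from the fit to all 18 libraries and bars are 95% intervals. DKK1, SFRP1, WNT5A, WNT5B, FZD7 and AXIN2 lie left of 0 in all 3 pre-incubations, and the points of CTNNB1 lie near 0.

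Over the 10 genes, exposed and unexposed libraries did not overlap, with the exposed ones lower, for 7 genes with PBS, 8 with cNSF-HA and 7 with fNSF-HA. The corresponding shares of the 13686 genes tested were 32.0%, 32.3% and 26.2%. For 6 genes (DKK1, SFRP1, WNT5A, WNT5B, FZD7 and AXIN2) this held in all 3, as it did for 19.5% of all genes. None was higher without overlap (0 of 10 in each), where 31.8%, 31.4% and 22.6% of all genes were. The median log2 change of the 10 was -0.44, -0.44 and -0.62, beside 0.0043, -0.00053 and -0.034 over all genes tested. Since the list was made with these libraries known, the counts are no evidence about the pathway.

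Whether the wider pathway moved in the same way was examined with 97 other Wnt pathway genes listed by role. This list, too, was made with earlier results of these data known, so its counts and calls are no independent test of the pathway. Of these, 63 passed the filter and were tested with limma, with Benjamini-Hochberg adjustment over all 13686 genes. The other 34 included 10 without a read, among them WNT6, WNT7A, WNT10A, DKK4 and FZD10. After tBHP, 20 of the 63 rose with PBS, 17 with cNSF-HA and 16 with fNSF-HA (adjusted p under 0.05), where the background over all genes was 24.2%, 24% and 19.2%. The number that fell was 21, 24 and 21, with a background of 26.9%, 26.8% and 22.7%. The shares of the pathway genes that rose were 31.7%, 27.0% and 25.4%, and those that fell 33.3%, 38.1% and 33.3%. In all 3 pre-incubations 13 of the 63 rose and 19 fell, where 14.6% and 17.9% of all genes did.

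Counts by role are a description, since no role was tested as a group. Of 11 receptors tested, 7 fell and 1 rose in each pre-incubation, which is 63.6% and 9.09% of them. Of all genes, 26.9%, 26.8% and 22.7% fell and 24.2%, 24% and 19.2% rose with PBS, cNSF-HA and fNSF-HA. The median log2 change of the receptors was -0.58, -0.52 and -0.72, beside 0.0043, -0.00053 and -0.034 over all genes. ROR1, a receptor for WNT5A, fell from 270 ± 23.4 to 85.0 ± 12.7 (SD, n = 3) normalized counts in PBS cells, a log2 change of -1.66 (limma adjusted p = 2.96e-06). With cNSF-HA and fNSF-HA the log2 changes of ROR1 were -1.98 and -2.06. FZD4, another Frizzled receptor, fell from 291 ± 14.2 to 119 ± 14.3 (SD, n = 3) in PBS cells, with log2 changes of -1.30, -1.58 and -1.15 (largest limma adjusted p = 7.66e-07). FZD2 fell in all 3 (-0.73, -0.83 and -1.37, or -1.10, -1.25 and -1.41 with the GC and length trend removed), but in PBS cells its call was lost without tBHP replicate 2 (limma adjusted p = 0.0505). PTK7, a receptor-like protein of the planar polarity branch, was the exception and rose by log2 0.39, 0.37 and 0.26. With the trend removed the values for PTK7 were 0.13, 0.17 and 0.21. LGR4, the receptor of the R-spondins, which strengthen Wnt signals, fell from 219 ± 22.9 to 82.6 ± 21.1 (SD, n = 3) in PBS cells (log2 change -1.43, limma adjusted p = 4.68e-06).

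Of 16 genes of the destruction complex and the Dishevelled family, 8 rose and 2 fell with PBS, 8 and 3 with cNSF-HA, and 7 and 3 with fNSF-HA. The shares that rose were 50%, 50% and 43.8%, against 24.2%, 24% and 19.2% of all genes, and those that fell 12.5%, 18.8% and 18.8%, against 26.9%, 26.8% and 22.7%. CSNK1E, a casein kinase, rose from 4500 ± 140 to 7433 ± 323 (SD, n = 3) in PBS cells (log2 change 0.72, limma adjusted p = 3.29e-07). With the GC and length trend removed the log2 changes of CSNK1E were 0.47, 0.36 and 0.50. APC2, a relative of APC, rose from a low level of 8.26 ± 2.30 to 23.96 ± 3.86 (SD, n = 3), but it passed the filter only through its exposed groups. APC itself, the scaffold of the complex, fell from 1932 ± 52.0 to 1186 ± 93.2 (SD, n = 3), with log2 changes of -0.71, -0.89 and -0.58. With the GC and length trend removed the values for APC were -0.32, -0.40 and -0.32, and its calls held (largest limma adjusted p = 0.00124). TNKS2, a tankyrase that acts on the axins, also fell (-0.57, -0.53 and -0.36, or -0.35, -0.25 and -0.22 with the trend removed). CSNK1D, another casein kinase, rose by 0.49 in PBS and 0.47 in cNSF-HA cells, which became 0.24 and 0.31 with the trend removed. In fNSF-HA cells the calls of TNKS2 and CSNK1D were lost without tBHP replicate 3 (limma adjusted p = 0.198 and 0.0669). Their changes were then -0.22 and 0.20, in place of -0.36 and 0.32.

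Nuclear partners of β-catenin moved both ways. Of 12 tested, 6 rose and 4 fell with PBS, and 4 rose and 4 fell with either form of hyaluronan. The shares that rose were 50% with PBS and 33.3% with either form, and 33.3% fell throughout, beside 24.2%, 24% and 19.2% of all genes that rose and 26.9%, 26.8% and 22.7% that fell. TCF7L2, a TCF factor, rose from 379 ± 27.0 to 934 ± 44.6 (SD, n = 3) in PBS cells, with log2 changes of 1.30, 0.95 and 1.06 (largest limma adjusted p = 3.74e-07). TCF7, another TCF factor, rose from 360 ± 4.39 to 688 ± 51.3 (SD, n = 3), with log2 changes of 0.93, 0.73 and 0.72. The co-repressors TLE1 and TLE4 fell by 0.46 and 0.49 on the log2 scale in PBS cells, and the value for TLE1 was -0.71 with the GC and length trend removed. PYGO1, a co-activator of the complex, fell from 316 ± 14.9 to 167 ± 24.3 (SD, n = 3) in PBS cells. Its log2 changes were -0.93, -1.20 and -0.84, and -0.34, -0.58 and -0.47 with the trend removed. PYGO2 was called higher in all 3 (log2 0.24, 0.24 and 0.21), but not in any of them with the GC and length trend removed (0.021, 0.0094 and 0.12).

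Among the remaining roles, WLS, which carries Wnt proteins to the cell surface, rose from 4607 ± 208 to 6173 ± 309 (SD, n = 3) in PBS cells, with log2 changes of 0.42, 0.54 and 0.57. WNT7B was the only ligand of 5 tested that rose in all 3 (0.85, 0.76 and 0.44, or 0.53, 0.45 and 0.42 with the GC and length trend removed), though in fNSF-HA cells its adjusted p was 0.117 without tBHP replicate 3. KREMEN1, a membrane protein that works with DKK1 to remove LRP6 from the surface, rose from 304 ± 9.15 to 462 ± 11.0 (SD, n = 3) in PBS cells (log2 changes 0.60, 0.37 and 0.26, or 0.38, 0.24 and 0.21 with the trend removed). CCND1, the cyclin D1 gene and a known target of β-catenin, fell from 28286 ± 128 to 20347 ± 479 (SD, n = 3), by log2 0.48 in PBS cells. In the planar polarity branch 1 of 9 rose in each pre-incubation (11.1%), and 5, 5 and 4 fell with PBS, cNSF-HA and fNSF-HA (55.6%, 55.6% and 44.4%), where 26.9%, 26.8% and 22.7% of all genes fell. These were led in PBS cells by DAAM2, which fell from 88.3 ± 9.56 to 39.4 ± 4.59 (SD, n = 3). The calls with fNSF-HA were the least firm. Those of TNKS2, PTK7, PYGO2 and WNT7B were lost in 12, 7, 7 and 5 of the alternatives, and that of KREMEN1 was lost without unexposed fNSF-HA replicate 1 (limma adjusted p = 0.0961).

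**Figure D3:**
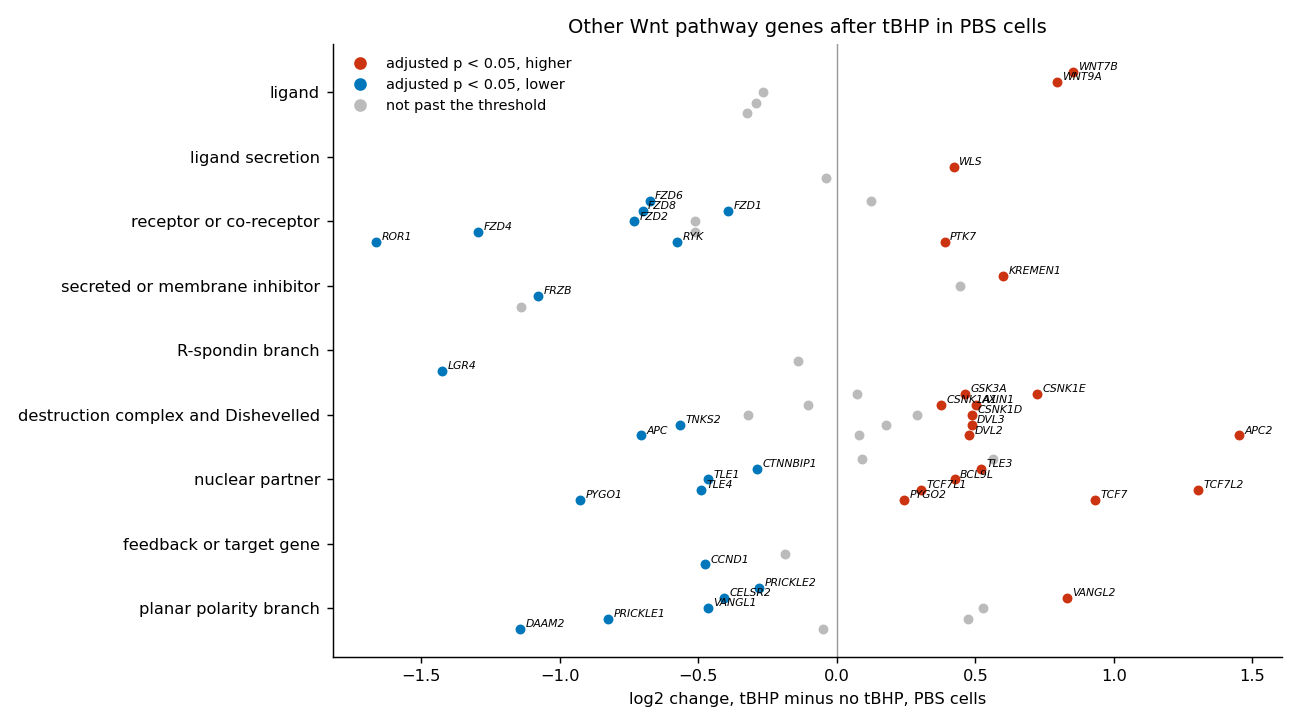
Log2 change after tBHP in PBS cells (horizontal axis, log2 of normalized read count + 1) of the 63 other Wnt pathway genes tested, grouped by role. Each point is a gene, and position within a row has no meaning. Receptors lie mostly left of 0, with ROR1 at -1.66, and the genes listed under destruction complex and Dishevelled mostly right of it.

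Whether pre-incubation with intact or cut hyaluronan altered these genes was tested between the 3 pre-incubations, without and with tBHP. None of the 10 genes passed the threshold in any of the 6 comparisons in limma's test with all libraries (0 of 10 in each). Of all 13686 genes, 0.139% passed between fNSF-HA and PBS cells after tBHP and 0% in each of the other 5. At an unadjusted p under 0.05 there were 0, 0 and 0 of the 10 without tBHP for cNSF-HA against PBS, fNSF-HA against PBS and cNSF-HA against fNSF-HA, and 3, 3 and 5 with it. The share of all genes at that level was 0.921%, 0.796% and 1.51% without tBHP and 8.64%, 22.7% and 32.2% with it. These counts rest on a spread shared by the unexposed and the more variable exposed libraries. With limma fitted to only the compared groups the order was the other way round: 2 (LRP5 and WNT5A), 1 (DKK1) and 1 (DKK1) of the 10 were at that level without tBHP and 0, 0 and 0 with it. The shares of all genes were then 10.9%, 8.58% and 20.7% without tBHP and 3.91%, 5.03% and 7.31% with it. edgeR also called 0 of the 10 in each comparison, and 0.263% of all genes between fNSF-HA and PBS cells after tBHP. DESeq2, the tool that the study itself used, called 1 of the 10. This was DKK1 between exposed cNSF-HA and fNSF-HA cells, where DESeq2 called 6.97% of all genes. The study, too, reported genes that differed between these exposed groups.

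The libraries of a few genes did not overlap between pre-incubations. Without tBHP, AXIN2 and LRP5 were higher and SFRP1 lower in cNSF-HA than in PBS cells, against 6.89% and 8.33% of all genes in these directions. In fNSF-HA cells DKK1 and LRP5 were higher than with PBS and 0 of the 10 lower (9.17% and 4.82% of all genes). AXIN2 and LRP5 were higher with cNSF-HA than with fNSF-HA, and DKK1 and SFRP1 lower (7.91% and 17.1%). After tBHP, AXIN2 and DKK1 were higher and SFRP1 lower with cNSF-HA than with PBS (4.57% and 5.01%), and 0 of the 10 were apart between fNSF-HA and PBS (6.86% and 5.11%). Only DKK1 was apart between the exposed cNSF-HA and fNSF-HA libraries, being higher with cNSF-HA (5.07% higher and 8.29% lower over all genes).

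DKK1 had the smallest p of the 10 in the comparison of cNSF-HA with fNSF-HA cells, and its sign differed without and with tBHP. Without tBHP the cNSF-HA libraries (7976 to 8217) all lay under the fNSF-HA libraries (8519 to 8810), a log2 difference of -0.10 (SE 0.053, unadjusted p = 0.0665, limma adjusted p = 0.9999). This shrank to -0.054 with the GC and length trend removed (limma unadjusted p = 0.178). With tBHP the cNSF-HA libraries (5442 to 5819) all lay above the fNSF-HA libraries (4778 to 4928), a difference of 0.20 (95% interval 0.086 to 0.31, unadjusted p = 0.00156, limma adjusted p = 0.0981). Of all genes tested, 17.1% were lower in cNSF-HA without overlap before tBHP, and 5.07% were higher without overlap after it. Against PBS cells after tBHP, which are shared by both comparisons, DKK1 was 0.15 higher in cNSF-HA cells (limma adjusted p = 0.528), with no overlap, and differed by -0.046 in fNSF-HA cells (adjusted p = 0.609). With the GC and length trend removed the first of these shrank to 0.098 (limma adjusted p = 0.258), while the second was -0.18 and passed (adjusted p = 0.0371), as did 0.503% of all genes. With DESeq2 the difference between exposed cNSF-HA and fNSF-HA cells passed the threshold (adjusted p = 0.0166), as it did in limma's test with the GC and length trend removed (0.28, adjusted p = 0.00345), where DKK1 was the only gene called (0.00798% of all). It also passed without fNSF-HA tBHP replicate 3 (limma adjusted p = 0.0131), where 40.8% of all genes did. In the other 26 of 29 alternatives it did not pass, with an adjusted p of 0.466 when only the compared groups were fitted with limma and 0.572 without fNSF-HA tBHP replicate 2. Without tBHP the difference passed with only the compared groups fitted (limma adjusted p = 0.0111), where 7.16% of all genes did.

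The test of the difference itself, whether the change of DKK1 with tBHP depended on the pre-incubation, gave 0.30 on the log2 scale between cNSF-HA and fNSF-HA cells (95% interval 0.14 to 0.46, unadjusted p = 0.000819). After adjustment over all genes it did not pass in limma's test (adjusted p = 0.710), while with the GC and length trend removed it was 0.34 and did (adjusted p = 0.0451), again as the only gene (0.00798%). Between cNSF-HA and PBS cells the difference in response was 0.19 (limma adjusted p = 0.999), and between fNSF-HA and PBS cells -0.11 (adjusted p = 0.688). With the trend removed the first shrank to 0.11 (limma adjusted p = 0.741) and the second grew to -0.23 (adjusted p = 0.499), so that which of the 2 was the larger depended on the trend. Of all genes tested, 4.06%, 6.88% and 3.89% had an unadjusted p under 0.05 for the response of cNSF-HA against PBS, fNSF-HA against PBS and cNSF-HA against fNSF-HA cells. For the other 9 genes, the unadjusted p of all 3 differences in response was 0.0537 or above, that of LRP5 between fNSF-HA and PBS cells being the smallest.

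The other 9 genes showed no difference between pre-incubations that passed the threshold with all libraries. Without tBHP their unadjusted p-values in that fit were 0.133 or above. AXIN2 had 7, 9 and 11 reads after tBHP in cNSF-HA cells and 6, 3 and 2 in PBS cells, a log2 difference of 1.09 (95% interval 0.38 to 1.81, limma adjusted p = 0.497). Over the alternatives it ran from 0.67, with a pseudocount of 5, to 1.46, without PBS tBHP replicate 1. Between fNSF-HA and PBS cells after tBHP, AXIN2 (0.76, adjusted p = 0.202), FZD7 (-0.20, adjusted p = 0.163) and LRP5 (-0.44, adjusted p = 0.172) had an unadjusted p under 0.05 in limma's test. With the GC and length trend removed these were 0.85, -0.13 and -0.085. Over all alternatives they ran from 0.44 to 1.12 for AXIN2, from -0.29 to -0.10 for FZD7 and from -0.63 to -0.085 for LRP5. The values nearest to 0 with a library left out were -0.10 for FZD7 and -0.17 for LRP5, both without fNSF-HA tBHP replicate 2, and 0.47 for AXIN2 without PBS tBHP replicate 3. SFRP1 was 0.17 lower on the log2 scale in cNSF-HA than in PBS cells after tBHP, without overlap (limma adjusted p = 0.575). This difference of SFRP1 was -0.10 without cNSF-HA tBHP replicate 3 and -0.11 with the GC and length trend removed. Between exposed cNSF-HA and fNSF-HA cells, WNT5A differed by -0.29 (95% interval -0.52 to -0.053, limma adjusted p = 0.106) and WNT5B by 0.25 (0.018 to 0.48, adjusted p = 0.132). FZD7 differed by 0.17 (limma adjusted p = 0.148) and LRP5 by 0.39 (adjusted p = 0.140), and all 4 of these had libraries that overlapped. With the GC and length trend removed they were -0.082 for WNT5A, -0.023 for WNT5B, 0.11 for FZD7 and 0.033 for LRP5, while the value for DKK1 became larger. Single libraries decided several of these results. Without fNSF-HA tBHP replicate 2 the differences between exposed cNSF-HA and fNSF-HA cells shrank to -0.14 for WNT5A, 0.12 for WNT5B, 0.069 for FZD7 and 0.12 for LRP5, and without cNSF-HA tBHP replicate 3 those of WNT5A and WNT5B shrank to -0.18 and 0.15. Without fNSF-HA replicate 3 after tBHP, 7 of the 10 genes passed between cNSF-HA and fNSF-HA cells (DKK1, WNT5A, WNT5B, FZD7, LRP5, SFRP1 and CTNNB1) and 3 between fNSF-HA and PBS cells (FZD7, LRP5 and CTNNB1). The shares of all genes called without that library were 40.8% and 29.4%.

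**Figure D4:**
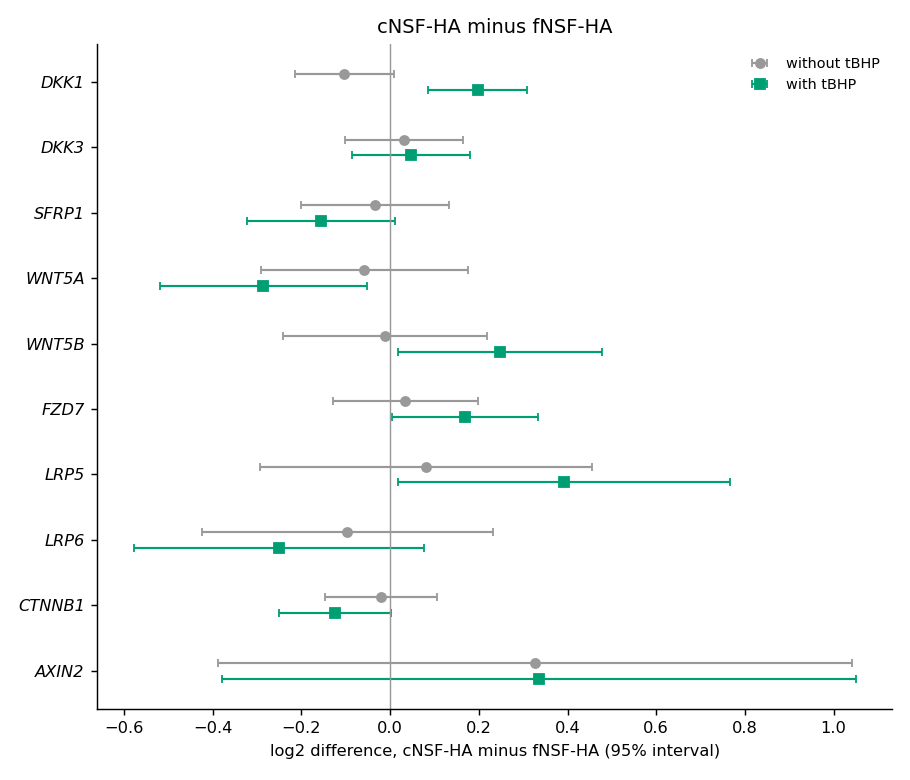
Log2 difference between cNSF-HA and fNSF-HA cells (horizontal axis, log2 of normalized read count + 1) of the 10 genes without and with tBHP. Points are estimates from the fit to all 18 libraries and bars are 95% intervals. DKK1 lies at -0.10 without tBHP and at 0.20 with it.

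None of the 63 other Wnt pathway genes passed between pre-incubations in limma's test with all libraries (0 in each of the 6 comparisons). At an unadjusted p under 0.05 there were 1 (CELSR3), 0 and 0 without tBHP and 7, 20 and 22 with it, in the same order of comparisons, where the shares of all genes were 0.921%, 0.796% and 1.51%, and 8.64%, 22.7% and 32.2%. With only the compared groups fitted, the numbers were 10, 5 and 15 without tBHP and 3, 6 and 6 with it (all genes 10.9%, 8.58% and 20.7%, and 3.91%, 5.03% and 7.31%). That fit called 3 of the 63 between unexposed cNSF-HA and fNSF-HA cells, where it called 7.16% of all genes. They were FZD2 (0.16, limma adjusted p = 0.0420), FZD6 (-0.12, 0.0250) and TNKS2 (-0.15, 0.00770), named after their values were seen, as are those that follow. edgeR called 0 of the 63 in each comparison. DESeq2 called 3 between fNSF-HA and PBS cells after tBHP (FZD1, KREMEN1 and TLE3, all lower with fNSF-HA), where it called 3.22% of all genes. Between exposed cNSF-HA and fNSF-HA cells it called 5 of the 63 (FZD1 higher, and FZD4, FZD6, PRICKLE2 and PYGO1 lower with cNSF-HA) and 6.97% of all genes.

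The genes whose pattern over the 18 libraries was most like that of DKK1 were CTGF, EDN1, C1orf198, GCNT1 and ID2, with Pearson's r of log2 values from 0.991 to 0.982, out of 10118 genes with a mean count of at least 100. CTGF codes for a secreted matrix-associated growth factor, EDN1 for the peptide endothelin, GCNT1 for a glycosyltransferase and ID2 for an inhibitor of DNA-binding factors. All 18 points share the step between unexposed and exposed libraries, so that any gene lowered by a similar step has a high r. CTGF had a mean of 25543 normalized counts, and its log2 change after tBHP was -0.91 with PBS, -0.68 with cNSF-HA and -0.90 with fNSF-HA. EDN1 was at -1.14, -0.92 and -1.13. ID2 was at -0.93, -0.81 and -0.92. In these 3, as in DKK1, the step was smallest in cNSF-HA cells. In C1orf198 (-0.86, -0.87 and -0.95) and GCNT1 (-1.79, -1.87 and -2.09) it was not. All of these genes were chosen by their r with DKK1 over the same libraries, which favours genes that share its differences between pre-incubations. The likeness in cNSF-HA cells is therefore a description and no separate support for a difference in DKK1. Within the list, FZD7 had the highest r with DKK1 (0.952), followed by WNT5B (0.891), WNT5A (0.876) and SFRP1 (0.847), and CTNNB1 the lowest (-0.23).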

How the data were processed

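Polyadenylated RNA of 18 IMR90 libraries, 3 in each of 6 groups named by the labels, was read single-end at 100 nt after TruSeq V2 preparation, which keeps no strand. The submitters' processing notes name Trimmomatic 0.32, STAR 2.5.2b, Subread 1.5.0-p3 with featureCounts, DESeq2 and the build GRCh38.p7. The authors deposited, for 56269 genes, a normalized signal, the reads of a gene divided by the size factor of its library. Multiplied back, 100% of these values in each library were whole reads (largest deviation 3.99e-05 of a read). The table also holds p-values, q-values and a rank score that the authors computed, which were not used.

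The members and the gene lists were chosen with earlier results of these data known. For log2(value + 1), 13686 genes with a mean value of at least 10 (of 31441 with a read) were fitted with limma 3.58.1 in R 4.3.3, with a trend of variance on mean, a coefficient for each group and an estimate of the spread shared by all 18 libraries. Tests were two-sided with Benjamini-Hochberg adjustment and a threshold of 0.05. A pseudocount understates the changes of low genes. Differences between responses were interaction contrasts. The scripts were tested on simulated counts.

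All 10 members were named. Of the other pathway genes, up to 3 per role and direction were named, those past the threshold in all 3 tBHP comparisons with the largest mean change. For likeness to DKK1 the 5 genes with the highest r were named. Members with an unadjusted p under 0.05 between pre-incubations were given with their values.

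The alternatives were pseudocounts of 0.1 and 5, no filter, a filter at a mean of 50, scaling by the median log2 ratio, the replicate number as a block, quantile normalization, edgeR 4.0.16 and DESeq2 1.42.0 on the recovered reads, a fit to the compared groups only, each library left out in turn, and removal of the trend with GC content and length of the transcript (natural splines, 5 degrees of freedom, GENCODE release 29, 12528 genes or 91.5% of those tested). The gene models and lengths were also from GENCODE release 29. Chi-square statistics per degree of freedom between replicates ranged from 1.47 to 2.69 without tBHP and from 2.85 to 70.6 with it, so no pair was treated as a repeat of another. Protein sequences were not analysed here.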

Additional observations from a re-analysis of the deposited data

Results flagged for a closer look

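DKK1 was singled out because its difference between cNSF-HA and fNSF-HA cells had opposite signs without and with tBHP: all 3 cNSF-HA libraries lay under all 3 fNSF-HA libraries without tBHP (7976 to 8217 against 8519 to 8810 normalized read counts) and above them with it (5442 to 5819 against 4778 to 4928). The change in the difference was 0.30 on the log2 scale (SE 0.075). The interaction test in limma gave an unadjusted p of 0.000819 and an adjusted p of 0.710, so the change did not pass after adjustment over all genes. The unadjusted p rests on the same values that singled out DKK1, so it is no separate support. The part played by the GC content of the transcripts, which ran with the spread of the exposed libraries, was measured only by removing the trend, after which the value was 0.34 (limma adjusted p = 0.0451) and the difference without tBHP was -0.054 in place of -0.10.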

How the results depend on the processing

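Most results kept their direction and their side of the threshold under every alternative. The number of the 10 genes that passed between unexposed cNSF-HA and fNSF-HA cells was 0, and 1 (DKK1, -0.10, adjusted p = 0.0111) when only the compared groups were fitted with limma, where 980 of all 13686 genes passed. After tBHP it was 0, and 1 with DESeq2 (954 of all genes), 1 with the GC and length trend removed (1 of 12528), and 0 to 7 with a library left out. Between fNSF-HA and PBS cells after tBHP it was 0, and 1 (DKK1, -0.18, limma adjusted p = 0.0371) with the trend removed (63 of all genes) and 0 to 3 with a library left out. For the difference in response between cNSF-HA and fNSF-HA cells it was 0, and 1 with the trend removed. The highest counts with a library left out, 7 and 3, came without fNSF-HA tBHP replicate 3, where 5586 and 4024 of all genes passed. The number of other pathway genes that rose in fNSF-HA cells was 16, and 7 when only the compared groups were fitted and 9 to 17 with a library left out (9 without tBHP replicate 1, 10 without unexposed replicate 3). CTNNB1 was the only member ever higher after tBHP without overlap, so that the count of 0 became 1 in PBS cells (edgeR, trend removed), 1 in cNSF-HA cells (trend removed) and 1 in fNSF-HA cells (edgeR, trend removed), with a range of 0 to 1 with a library left out in cNSF-HA and in fNSF-HA cells. The change of LRP6 in PBS cells turned to 0.15 and the difference of WNT5B between exposed cNSF-HA and fNSF-HA cells to -0.023 with the trend removed. The cause of these shifts was not tested. Where groups or libraries were left out, the number of libraries and the estimate of the spread both changed. Of the named pathway genes, calls of TNKS2, CSNK1D, WNT7B, PYGO2, PTK7 and KREMEN1 in fNSF-HA cells were lost in 12, 2, 5, 7, 7 and 2 settings. The depth limits AXIN2 most, with 2 to 21 reads per library.

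Same-numbered libraries of different groups did not deviate together (r from -0.12 to 0.33 over 45 pairs), so the numbers do not pair the samples. With a replicate block, 0 of the 10 genes passed in each comparison, and DKK1 between exposed cNSF-HA and fNSF-HA cells had an adjusted p of 0.0644 in limma's test.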
